A study of Mus musculus with 27 samples.

Results

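Erythroid and heme synthesis genes build the red blood cell, and they were chosen by name: 37 gene symbols were listed, 35 of them were rows of the 37095-gene count table, and the other 2 were not analysed here. The 35 genes comprise 4 haemoglobin genes (Hba-a1, Hba-a2, Hbb-bs, Hbb-bt) and 7 heme synthesis enzymes (Alas2, Alad, Uros, Urod, Cpox, Ppox, Fech). With them are the mitochondrial carriers Slc25a37 and Slc25a38, Tspo2 of the translocator protein family and the iron uptake receptor Tfrc. There are 6 genes for a growth factor receptor and nuclear regulators (Epor, Klf1, Gata1, Tal1, Nfe2, Hemgn). Then come 5 for the membrane and its skeleton (Slc4a1, Ank1, Sptb, Epb41, Epb42) and 4 for surface antigens (Ermap, Rhd, Rhag, Kel). The rest are 3 for cytosolic enzymes (Car1, Car2, Bpgm) and 2 for ubiquitin ligases (Trim10, Trim58). The series asked what cranial irradiation does to immune cells bordering the brain and to stroke recovery, and it measured messenger RNA in the skullcap with its marrow (called skull here), the meninges scraped from that skullcap, and the brain of mice. In each tissue 3 libraries came from mice 0.5 h after ultraviolet B light was shone on the interparietal bone at the rear of the skullcap (311 nm, 2 mW), 3 from mice 24 h after it, and 3 from untreated mice (controls), which makes 27 libraries in 9 groups. Strain, sex and age do not appear in the labels used here, nor do sham handling of the controls or the clock time of collection. Mice irradiated elsewhere than on the head and mice with stroke were not analysed here. Whether the 3 libraries of a group are from separate animals is not stated in the labels, and the p-values then reflect the spread among these libraries, which may be technical.

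Red cells arise in the marrow from precursors that divide a few times, fill with haemoglobin, lose the nucleus and leave as reticulocytes, which still carry haemoglobin mRNA. Heme is made from glycine and succinyl-CoA by a chain of enzymes that starts and ends in the mitochondrion, and iron for it enters the cell bound to transferrin. Erythropoietin, acting through its receptor, keeps early precursors alive, and the transcription factors GATA1, KLF1 and TAL1 switch on most genes of the chain, the globins and the red cell membrane. Skullcap marrow is one site of this process in the mouse.

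Skull libraries held 16.0 M to 17.8 M counts and all 27 libraries 14.2 M to 27.3 M. Levels are given as CPM (counts of a gene per 1000000 counts of the library, after TMM scaling within a tissue). Levels of different tissues are therefore not on a common scale. Marker sums for bone and neurons set skull apart from brain. Over the skull libraries 9 osteoblast genes summed to 51090 to 94520 CPM, against 54.1 to 91.4 CPM in brain. The sum of 9 neuron genes was 12.3 to 23.9 CPM in skull, against 6197 to 7123 CPM in brain. That of 9 meningeal fibroblast genes did not follow the dissection, with 44340 to 77820 CPM in skull and 14740 to 37660 CPM in meninges. The meninges had 13790 to 39370 CPM of the osteoblast genes, and 14350, 117 and 3883 CPM of 6 choroid plexus genes in the 24 h libraries. The osteoblast list holds the collagen gene Col1a1 and the fibroblast list the collagen gene Col1a2, so neither sum alone tells bone from fibroblasts. Bulk libraries cannot tell fewer erythroid cells from less erythroid RNA per cell, and this holds for every skull result here.

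Among the skull libraries, 2 stood apart in the erythroid genes. At 24 h, replicate 2 was the highest of its group for 34 of the 35 genes (all but Uros), and it lay within or above the controls for 18 genes, while replicates 1 and 3 lay below every control for 34 and 33 genes. At 0.5 h, replicate 3 was the highest of its group for all 35 genes. The 31 genes other than haemoglobin summed to 2758, 2639 and 2360 CPM in controls, 3509, 3795 and 4826 CPM at 0.5 h and 1378, 2424 and 1479 CPM at 24 h, in the order of replicates 1 to 3. Counts of called genes in skull are therefore also given without 24 h replicate 2. For 24 h against 0.5 h and for 0.5 h against control they are given without 0.5 h replicate 3 as well. The shares of all genes called are those of the main fit, and shares under other fits are not reported here.

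In skull the erythroid genes were lower 24 h after irradiation than 0.5 h after it. Between those times 30 of the 35 genes fell and none rose, with a median log2 fold change of −1.10, so that the typical gene stood at 0.467 of its 0.5 h level (edgeR quasi-likelihood F test, Benjamini-Hochberg adjusted p under 0.05 over all 17426 genes tested). In the same comparison 7.74% of all genes tested were called lower and 16.1% called in either direction, and the median over all genes was 0.00. The 24 h libraries lay wholly below the 0.5 h libraries for 33 of the 35 genes and wholly above them for none. Of all genes tested 37.6% had groups that lay apart in either direction. The 5 genes not called were Hba-a2, Tfrc, Tal1, Nfe2 and Car1. Without 24 h replicate 2 the count was 33, without 0.5 h replicate 3 it was 23, and without 24 h replicate 1 or replicate 3 it was 16 or 17. A fit of the 6 libraries alone called 19.

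Set against the untreated controls, each time point alone gave a smaller result. At 0.5 h, 34 of the 35 log2 fold changes were positive with a median of 0.58, and 3 genes passed the test, all heme synthesis enzymes: Cpox, Uros and Fech rose. Over all genes 1.96% were called higher at 0.5 h and 4.9% in either direction. The 0.5 h libraries lay wholly above the controls for 27 genes and wholly below them for 1, Hba-a2, against 27.6% of all genes tested that did not overlap. These calls were not stable to leaving out a library. No gene was called higher when any 1 of the 3 controls or of the 3 libraries at 0.5 h was left out. Without 24 h replicate 2, 18 were called higher. That library is in neither group and enters only the filter, the scaling and the estimate of spread of the fit. DESeq2 called 13, and a fit of the 6 libraries alone 17.

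At 24 h against control, 34 of the 35 log2 fold changes were negative with a median of −0.61. The 8 genes that fell were Tspo2, Car2, Rhd, Epor, Sptb, Hba-a1, Hbb-bs and Ppox, and none rose. Over all genes 10.4% were called lower and 20.9% in either direction. The 24 h libraries lay wholly below the controls for 17 genes and wholly above them for none. Of all genes 37.7% had groups that lay apart in either direction. Replicate 2 at 24 h moved this count most: 27 genes were called lower without it. No gene was called without 24 h replicate 1 or control replicate 1, and 1 gene was called without 24 h replicate 3, control replicate 2, control replicate 3 or 0.5 h replicate 2, and 5 without 0.5 h replicate 1. The comparisons share libraries, so the values of a gene are set side by side below and no overlap of their lists is counted.

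**Figure D1:**
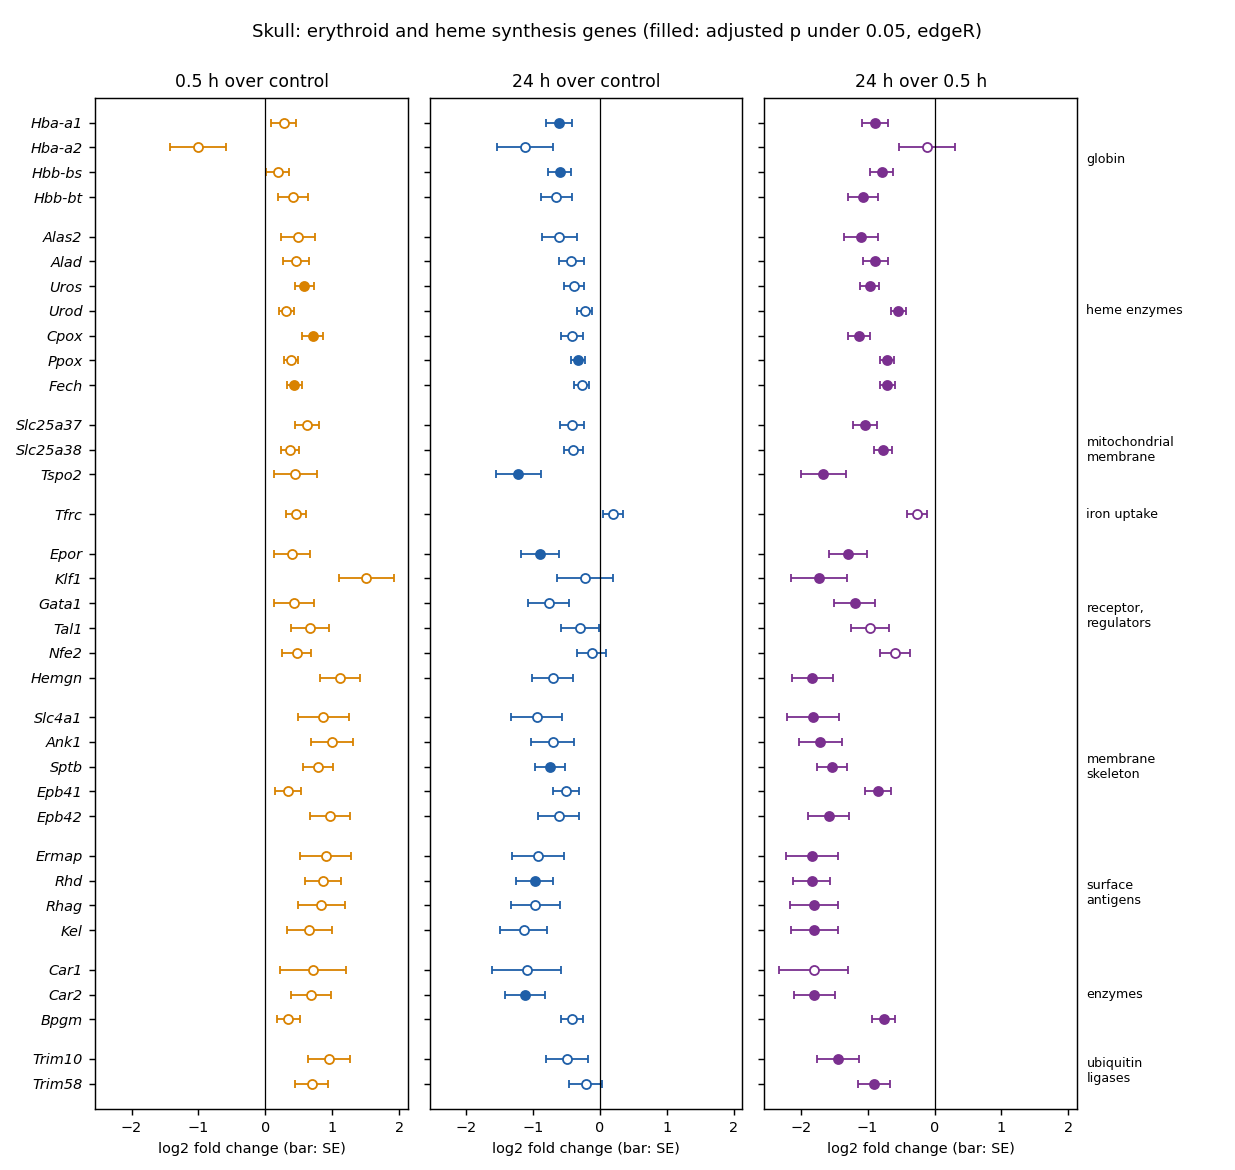
Log2 fold changes of the 35 erythroid and heme synthesis genes in skull (x axis), 1 row per gene ordered by role, for 0.5 h over control, 24 h over control and 24 h over 0.5 h. Points are edgeR estimates, bars are standard errors and filled points have an adjusted p under 0.05; 34 points lie right of 0 in the first panel, 34 lie left of it in the second, and 30 are filled, all to the left, in the last.

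Haemoglobin mRNA was the most abundant of the 35 per kilobase of transcript, and 3 of its 4 genes fell between 0.5 h and 24 h. The 4 genes lie in pairs, Hba-a1 (mm10 chr11:32283511-32284465, plus strand) with Hba-a2 (chr11:32296489-32297298, plus strand) for the alpha chain, and Hbb-bs (chr7:103826534-103828096, minus strand) with Hbb-bt (chr7:103812524-103813996, minus strand) for the beta chain. Hbb-bs had 2870, 2697 and 2670 CPM in controls, 2544, 3144 and 3680 CPM at 0.5 h and 1577, 2303 and 1547 CPM at 24 h. Hba-a1 had 1820, 1500 and 1830 CPM in controls, 1615, 1914 and 2697 CPM at 0.5 h and 1107, 1334 and 924 CPM at 24 h. Hbb-bt had 570.2, 513 and 532 CPM in controls, 583, 698 and 874 CPM at 0.5 h and 264, 479 and 288 CPM at 24 h. All 3 were lower in every 24 h library than in every 0.5 h library, and between those times Hbb-bs fell by 0.79 ± 0.17, Hba-a1 by 0.89 ± 0.19 and Hbb-bt by 1.07 ± 0.23 on the log2 scale (SE of the fit, here and below, with 3 libraries a group; adjusted p = 0.00934, 0.0104 and 0.0142). Against control, Hbb-bs and Hba-a1 fell at 24 h (log2 fold changes −0.60 ± 0.17, adjusted p = 0.0258 and −0.61 ± 0.19, adjusted p = 0.0406), and Hbb-bt had −0.65 ± 0.23, adjusted p = 0.0715. At 0.5 h none of the 3 passed the test, with log2 fold changes of 0.19 ± 0.17, 0.27 ± 0.19 and 0.42 ± 0.22 (adjusted p = 0.566, 0.437 and 0.318). The 4 genes together made up 0.511%, 0.491% and 0.460% of all counts in the 3 control libraries, 0.487%, 0.574% and 0.778% at 0.5 h and 0.306%, 0.427% and 0.283% at 24 h.

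The second alpha gene, Hba-a2, went against the other 34 genes at 0.5 h. It had 107, 88.5 and 117 CPM in controls, 39.3, 27.8 and 88.3 CPM at 0.5 h and 40.3, 58.3 and 45.6 CPM at 24 h. Its 0.5 h libraries lay below the controls and its log2 fold change was −1.01 ± 0.42, adjusted p = 0.220, which does not pass, although Hba-a2 was the 1 gene called, and called lower, without 0.5 h replicate 3. As a share of the alpha-chain counts, Hba-a2 made up 2.38%, 1.43% and 3.17% at 0.5 h and 3.52%, 4.19% and 4.70% at 24 h, against 5.55%, 5.57% and 6.02% in controls. The exact 95% intervals of these shares, which cover counting error only, do not reach from any irradiated library to any control: the highest irradiated value, 24 h replicate 3, has an interval of 4.38% to 5.05% and the lowest control, replicate 1, one of 5.31% to 5.81%. In the meninges the share was 3.81%, 3.92% and 2.20% at 0.5 h and 3.61%, 2.22% and 2.29% at 24 h, against 3.12%, 3.91% and 4.67% in controls, and these groups overlap. The annotated transcripts of the pair differ at 1 of 538 aligned bases (99.81% identity), and only 13.1% of the 50-base windows of Hba-a2 are unique to it. How the authors' counting divided such reads is not stated in the sources used here, so the split between the copies is uncertain and the sum of the pair is the firmer value. That sum was 1927, 1589 and 1947 CPM in controls, 1654, 1942 and 2786 CPM at 0.5 h and 1147, 1392 and 969.6 CPM at 24 h. The beta pair is less alike (92.65% identity), and its sum was 3440, 3211 and 3202 CPM in controls, 3127, 3843 and 4554 CPM at 0.5 h and 1840, 2782 and 1835 CPM at 24 h.

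**Figure D2:**
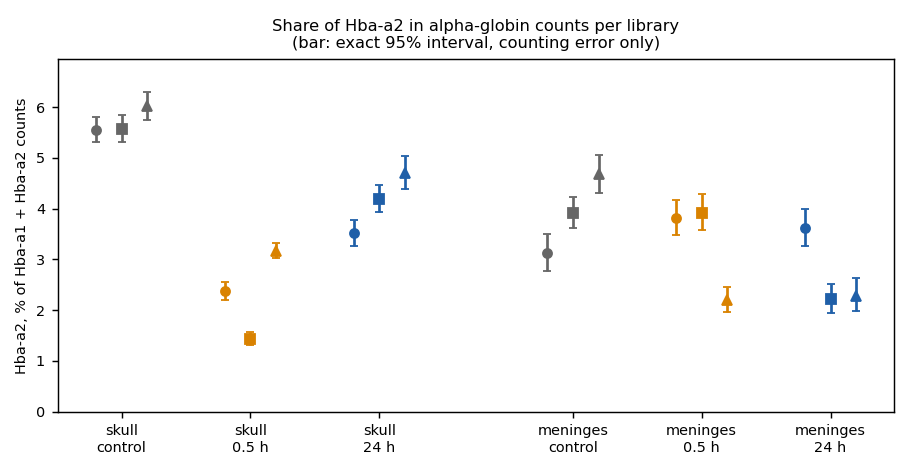
Share of Hba-a2 among the counts of both alpha-chain genes (y axis, percent) in each skull and meninges library by group, with exact 95% intervals for counting error; circles, squares and triangles are replicates 1, 2 and 3. The 3 skull controls, at 5.55% to 6.02%, lie above all 6 irradiated skull libraries, while the meninges groups overlap.

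All 7 heme synthesis enzymes fell between 0.5 h and 24 h, all 7 had lower levels in every 24 h library than in every 0.5 h library, and the 4 smallest p-values of the 35 genes in that comparison were those of Uros, Ppox, Cpox and Fech. Alas2, the erythroid form of the enzyme that opens the pathway (chrX:150547375-150570638, plus strand), had 182, 172 and 173 CPM in controls, 192, 216 and 333 CPM at 0.5 h and 95.5, 158 and 92.9 CPM at 24 h. It fell between the times (−1.10 ± 0.26, adjusted p = 0.0263), but not with a call against control at either (log2 fold changes 0.49 ± 0.26, adjusted p = 0.312 at 0.5 h and −0.61 ± 0.26, adjusted p = 0.139 at 24 h). Alas2 shares 311 exon bases with Apex2 on the opposite strand. Cpox, which makes protoporphyrinogen from coproporphyrinogen (chr16:58670292-58717636, plus strand), had 84.8, 83 and 76.3 CPM in controls, 117, 132 and 149.9 CPM at 0.5 h and 51, 79.3 and 52.2 CPM at 24 h. Every 0.5 h library exceeded every control, Cpox rose at 0.5 h (0.71 ± 0.16, adjusted p = 0.0337), and it fell after that (−1.13 ± 0.16, adjusted p = 0.00164); at 24 h against control it had −0.42 ± 0.16, adjusted p = 0.0894. Uros, which closes the porphyrin ring, had 22.2, 21.2 and 22.7 CPM in controls, 28.6, 34 and 36.4 CPM at 0.5 h and 13.5, 17.8 and 19.4 CPM at 24 h. It rose at 0.5 h (0.58 ± 0.14, adjusted p = 0.0350) and fell by 24 h (−0.97 ± 0.14, adjusted p = 0.00114), with −0.39 ± 0.14, adjusted p = 0.0719 at 24 h against control.

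Fech, which puts iron into the ring, had 149, 143 and 139 CPM in controls, 173, 187 and 219.8 CPM at 0.5 h and 106, 139 and 112 CPM at 24 h. It rose at 0.5 h (0.43 ± 0.11, adjusted p = 0.0479) and was lower at 24 h than at 0.5 h (−0.71 ± 0.11, adjusted p = 0.00182). Ppox, which acts just before it, had 77.1, 74.8 and 72.7 CPM in controls, 87.2, 97 and 109 CPM at 0.5 h and 53.1, 68.2 and 57.5 CPM at 24 h. Its change at 0.5 h was 0.38 ± 0.11, adjusted p = 0.0580, a value just short of the threshold, whereas its fall at 24 h passed against control (−0.33 ± 0.11, adjusted p = 0.0441) and against 0.5 h (−0.71 ± 0.11, adjusted p = 0.00127). Ppox shares 791 exon bases with B4galt3 on the opposite strand, so its counts may hold reads of that gene. Alad, the second enzyme, had 34.3, 27.7 and 28.5 CPM in controls, 33.8, 41.3 and 49.2 CPM at 0.5 h and 20.7, 29.1 and 17.5 CPM at 24 h. Urod, which trims the side chains of the ring, had 60.5, 49.4 and 53.8 CPM in controls, 62.7, 64.6 and 76.3 CPM at 0.5 h and 46.2, 51.8 and 42 CPM at 24 h. Both passed only between the times, with log2 fold changes of −0.89 ± 0.19, adjusted p = 0.0116 for Alad and −0.54 ± 0.11, adjusted p = 0.00712 for Urod. Cpox shares 204 exon bases with Gpr15 on the opposite strand. Calls of Uros, Ppox, Cpox, Fech and Urod between 0.5 h and 24 h held in all 18 alternative analyses, leaving out any library included, and those of Alas2 in 11.

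**Figure D3:**
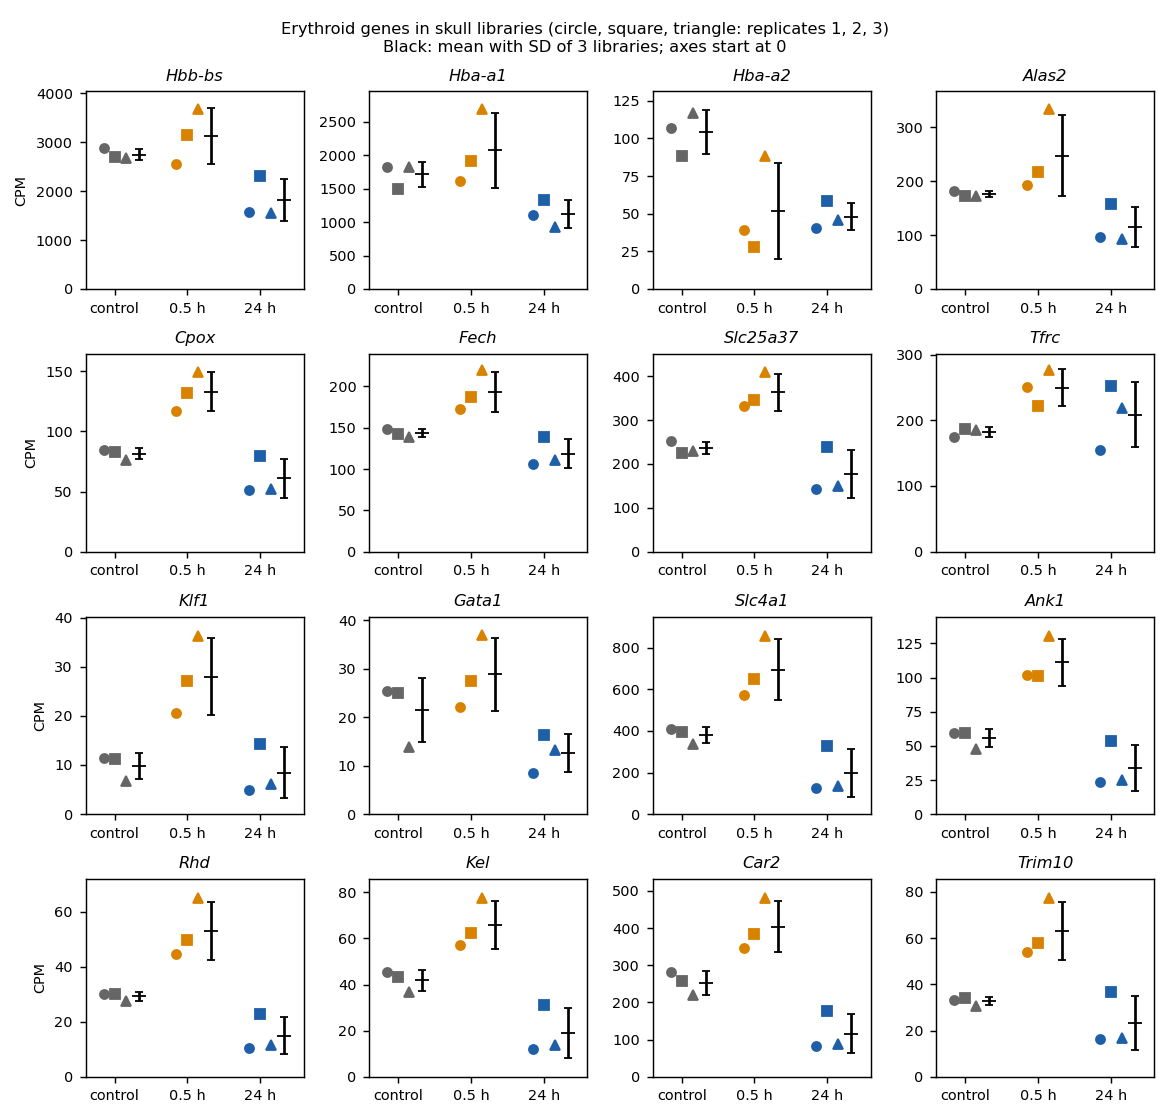
Level (y axis, CPM from 0) of 16 of the 35 genes in each skull library, for controls, 0.5 h and 24 h; circles, squares and triangles are replicates 1, 2 and 3, and black marks show the mean with SD of 3 libraries. In most panels the 0.5 h libraries are highest and 24 h replicate 2 (blue square) sits near the controls, as for Slc4a1, with 127 and 135 CPM in the other 24 h libraries and 329 CPM in that one.

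Promoter sequence was looked at as a description of the listed genes. They were picked by name as erythroid genes, so motifs of GATA and KLF factors may be frequent among them whatever the libraries show. The bearing of the motifs on the changes after irradiation was not tested. RefSeq windows on GRCm38.p6, from 250 bases before to 50 bases after a transcription start, were found for 28 of the 35 genes (34 windows), and 2 motifs were searched on both strands: AGATAA, the core bound by GATA factors, and CACCC, the core bound by KLF factors, which do not overlap each other. AGATAA was in 29.4% of the 34 windows and in 11.2% of all 32851 windows. CACCC was in 67.6% of them and 57.5% of all. Both were in 8 windows (23.5%, against 5.43% of all), those of Tal1, Rhd, Kel, Hbb-bs, Epor, Cpox, Trim10 and Alas2. The RefSeq start of Cpox lies upstream of the gene start given above, which is from GENCODE. Shown first are Uros (both of its RefSeq starts), Ppox and Cpox, the heme enzymes with the 3 smallest p-values, and then Alas2 and Hbb-bs, which were chosen after the motifs had been counted because each holds both. Capitals mark the motifs on either strand, and each is a match of letters, not a measured binding site.
Uros chr7:133709246-133709545, minus strand: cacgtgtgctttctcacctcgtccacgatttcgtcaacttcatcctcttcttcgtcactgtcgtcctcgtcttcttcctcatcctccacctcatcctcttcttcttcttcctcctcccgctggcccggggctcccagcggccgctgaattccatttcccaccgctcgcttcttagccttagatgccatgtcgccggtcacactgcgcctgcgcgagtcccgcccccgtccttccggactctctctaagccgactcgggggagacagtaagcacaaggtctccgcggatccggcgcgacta
Uros, other start, chr7:133702451-133702750, minus strand: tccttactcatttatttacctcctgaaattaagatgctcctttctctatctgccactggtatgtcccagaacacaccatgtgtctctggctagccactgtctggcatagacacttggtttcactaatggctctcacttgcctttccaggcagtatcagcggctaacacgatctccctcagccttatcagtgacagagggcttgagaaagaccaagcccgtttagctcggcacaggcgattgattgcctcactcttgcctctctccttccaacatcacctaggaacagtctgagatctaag
Ppox chr1:171281137-171281436, minus strand: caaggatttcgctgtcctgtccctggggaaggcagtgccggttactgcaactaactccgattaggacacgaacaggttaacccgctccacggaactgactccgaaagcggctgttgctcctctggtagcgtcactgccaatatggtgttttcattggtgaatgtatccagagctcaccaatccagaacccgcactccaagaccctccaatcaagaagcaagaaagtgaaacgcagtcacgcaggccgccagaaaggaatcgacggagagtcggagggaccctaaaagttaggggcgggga
Cpox chr16:58669958-58670257, plus strand: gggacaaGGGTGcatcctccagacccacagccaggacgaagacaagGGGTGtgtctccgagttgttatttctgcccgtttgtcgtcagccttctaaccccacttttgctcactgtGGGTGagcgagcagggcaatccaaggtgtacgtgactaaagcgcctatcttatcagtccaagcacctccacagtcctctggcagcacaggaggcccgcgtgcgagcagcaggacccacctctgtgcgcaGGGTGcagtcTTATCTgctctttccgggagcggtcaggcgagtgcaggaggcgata
Alas2 chrX:150547167-150547466, plus strand: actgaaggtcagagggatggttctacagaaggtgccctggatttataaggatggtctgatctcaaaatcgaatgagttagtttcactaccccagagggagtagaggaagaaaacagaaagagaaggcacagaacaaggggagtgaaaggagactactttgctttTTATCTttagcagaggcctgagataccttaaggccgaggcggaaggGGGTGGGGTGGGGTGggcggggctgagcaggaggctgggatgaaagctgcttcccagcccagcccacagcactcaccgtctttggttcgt
Hbb-bs chr7:103827879-103828178, minus strand: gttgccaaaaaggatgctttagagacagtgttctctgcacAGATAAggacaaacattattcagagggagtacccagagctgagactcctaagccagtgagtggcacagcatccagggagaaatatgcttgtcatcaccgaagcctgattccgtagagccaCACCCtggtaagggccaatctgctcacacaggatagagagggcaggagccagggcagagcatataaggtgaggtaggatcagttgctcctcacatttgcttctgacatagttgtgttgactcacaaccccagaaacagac
The Cpox window holds 1 AGATAA and 4 CACCC matches, Alas2 1 and 3, Hbb-bs 1 and 1, and Ppox and both Uros windows none of either. Cpox, Ppox and Uros all fell between 0.5 h and 24 h, with and without these letters in the window.

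Mitochondrial carriers that feed the pathway, and the gene Tspo2, moved with it. Slc25a37 (mitoferrin, which imports iron) had 253, 226 and 229.6 CPM in controls, 332, 347 and 411 CPM at 0.5 h and 142, 239 and 149.8 CPM at 24 h. Slc25a38, which imports glycine, had 31.7, 31.7 and 28.3 CPM in controls, 35.5, 40.2 and 43.1 CPM at 0.5 h and 24.9, 26.5 and 18.2 CPM at 24 h. Tspo2, an erythroid member of the translocator protein family, had 16.1, 14.1 and 16 CPM in controls, 16.4, 22.9 and 23.5 CPM at 0.5 h and 6.67, 10.1 and 3.05 CPM at 24 h. All 3 fell between 0.5 h and 24 h, Slc25a37 by 1.04 ± 0.18, Slc25a38 by 0.77 ± 0.14 and Tspo2 by 1.66 ± 0.34 on the log2 scale (adjusted p = 0.00530, 0.00323 and 0.0115). Slc25a37 shares 381 exon bases with Gm31748 on the opposite strand. Tspo2 also fell at 24 h against control (−1.22 ± 0.34, adjusted p = 0.0326), with the largest negative log2 fold change of the 35 genes in that comparison.

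The transferrin receptor Tfrc was the exception among the 35 at 24 h. It had 174, 187 and 186 CPM in controls, 251, 221 and 277 CPM at 0.5 h and 154, 252 and 218 CPM at 24 h. All 3 of its 0.5 h libraries lay above the controls, but at 24 h they spread from below the controls to well above them, and no comparison passed, with log2 fold changes of 0.45 ± 0.15, adjusted p = 0.114 at 0.5 h, 0.19 ± 0.15, adjusted p = 0.414 at 24 h and −0.26 ± 0.15, adjusted p = 0.278 between the times. It was the 1 gene with a positive value at 24 h against control. Per kilobase of transcript Tfrc stood at 29.4 CPM in controls, 40.4 at 0.5 h and 33.7 at 24 h, beside 73.2, 103 and 48.0 CPM per kilobase for Alas2.

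Of the receptor and nuclear regulators, 4 of 6 fell between 0.5 h and 24 h. Klf1, a master activator of globin and membrane genes, had 11.4, 11.2 and 6.84 CPM in controls, 20.6, 27 and 36.3 CPM at 0.5 h and 4.92, 14.3 and 6.16 CPM at 24 h. Its 0.5 h libraries were all above the controls with the largest fold of the 35 genes (log2 fold change 1.51 ± 0.41, adjusted p = 0.0780), which did not pass, and it fell after that (−1.73 ± 0.41, adjusted p = 0.0266). Hemgn, a nuclear protein of erythroid differentiation, had 48.3, 45.5 and 38.5 CPM in controls, 83.6, 85.9 and 117 CPM at 0.5 h and 18.9, 41.5 and 20.6 CPM at 24 h. It gave 1.12 ± 0.30, adjusted p = 0.0809 at 0.5 h, without a call, and fell between the times (−1.82 ± 0.31, adjusted p = 0.00818), a call that held in all 18 alternatives. Gata1, the regulator that erythroid cells cannot do without, had 25.4, 25.1 and 13.9 CPM in controls, 22.1, 27.4 and 37 CPM at 0.5 h and 8.54, 16.2 and 13.2 CPM at 24 h. Control replicate 3 was low for Gata1, and the gene passed only between the times (−1.19 ± 0.31, adjusted p = 0.0312).

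Epor, the erythropoietin receptor, had 21.2, 20.7 and 17.8 CPM in controls, 19.6, 23.6 and 35.1 CPM at 0.5 h and 7.86, 15.5 and 8.72 CPM at 24 h. It fell at 24 h against control (−0.90 ± 0.28, adjusted p = 0.0487) and against 0.5 h (−1.29 ± 0.28, adjusted p = 0.0141), and its 0.5 h libraries overlapped the controls. Tal1, a partner of GATA1 that is also used by blood stem cells and endothelium, had 41.9, 44.4 and 30.1 CPM in controls, 56.7, 59.6 and 69.5 CPM at 0.5 h and 23.6, 47.7 and 23.7 CPM at 24 h. Nfe2, a globin and platelet gene activator, had 58.7, 52.6 and 37.5 CPM in controls, 62.3, 59.98 and 83.5 CPM at 0.5 h and 37.6, 58.9 and 40.1 CPM at 24 h. Neither passed any comparison, with −0.97 ± 0.29, adjusted p = 0.0554 for Tal1 and −0.59 ± 0.22, adjusted p = 0.107 for Nfe2 between the times, and 24 h replicate 2 lay above all controls for both.

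Membrane and skeleton genes all fell between the irradiated times. Their median log2 fold change was −1.58, beside −0.89 for the 7 heme enzymes and −0.84 for the 4 haemoglobin genes, a difference that was not tested. Slc4a1, the anion exchanger and main membrane protein of the red cell (chr11:102348824-102366203, minus strand), had 409, 393 and 338 CPM in controls, 573, 652 and 857 CPM at 0.5 h and 127, 329 and 135 CPM at 24 h. It fell to 127 to 329 CPM at 24 h, against 573 to 857 CPM at 0.5 h (−1.82 ± 0.39, adjusted p = 0.0218). Ank1, the ankyrin that ties it to the skeleton, had 59.5, 59.2 and 47.9 CPM in controls, 102, 101 and 131 CPM at 0.5 h and 23.2, 53.5 and 25.4 CPM at 24 h. Ank1 had −1.71 ± 0.32, adjusted p = 0.0128 between the times and shares 862 exon bases with Gm15816 on the opposite strand.

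Sptb, the beta chain of spectrin, had 135, 129.5 and 106 CPM in controls, 196, 187 and 255 CPM at 0.5 h and 58.4, 102 and 60.7 CPM at 24 h. It fell at 24 h against control (−0.75 ± 0.23, adjusted p = 0.0485) as well as against 0.5 h (−1.53 ± 0.23, adjusted p = 0.00373). Epb42, which binds ankyrin and the anion exchanger, had 28.8, 30.9 and 27.8 CPM in controls, 46.1, 54.3 and 69.98 CPM at 0.5 h and 13.7, 29.7 and 13.7 CPM at 24 h. Epb41, which joins spectrin to actin and is widely expressed outside red cells, had 194, 199 and 159.6 CPM in controls, 207, 217 and 277 CPM at 0.5 h and 104, 172 and 114 CPM at 24 h. The values between the times were −1.58 ± 0.31, adjusted p = 0.0124 for Epb42 and −0.85 ± 0.20, adjusted p = 0.0192 for Epb41, which shares 142 exon bases with Gm10300 on the opposite strand. At 0.5 h against control none of the 5 passed, with log2 fold changes from 0.34 (Epb41) to 1.001 (Ank1).

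The 4 surface antigen genes had the most uniform change, with log2 fold changes between −1.80 and −1.83 from 0.5 h to 24 h, all called. Rhd, which carries the Rh antigens, had 29.96, 30.1 and 27.5 CPM in controls, 44.5, 49.5 and 64.9 CPM at 0.5 h and 10.5, 22.6 and 11.5 CPM at 24 h. Rhag, its membrane partner, had 27.6, 24.2 and 22.1 CPM in controls, 35.3, 44.4 and 51.9 CPM at 0.5 h and 8.82, 21.2 and 7.75 CPM at 24 h. Both were above the controls in every 0.5 h library and below them in every 24 h library. Kel, a membrane peptidase, had 45.2, 43.4 and 36.8 CPM in controls, 57.3, 62.6 and 77.4 CPM at 0.5 h and 11.9, 31.2 and 13.8 CPM at 24 h. Ermap, an erythroid adhesion protein, had 68.8, 76.4 and 58.5 CPM in controls, 104, 126 and 150.2 CPM at 0.5 h and 23.5, 60.1 and 23.5 CPM at 24 h. In each, replicates 1 and 3 at 24 h were about alike and replicate 2 was well above them. Rhd was the 1 of the 4 that also passed at 24 h against control (−0.97 ± 0.28, adjusted p = 0.0384), while Kel had −1.14 ± 0.35, adjusted p = 0.0574, Rhag −0.97 ± 0.37, adjusted p = 0.102 and Ermap −0.93 ± 0.39, adjusted p = 0.142. None passed at 0.5 h, with log2 fold changes from 0.65 (Kel) to 0.90 (Ermap).

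Among the cytosolic enzymes, the carbonic anhydrase Car2 had 283, 256 and 219.5 CPM in controls, 347, 385 and 481 CPM at 0.5 h and 81.5, 178 and 89.3 CPM at 24 h. It fell at 24 h against control (−1.12 ± 0.30, adjusted p = 0.0376) and against 0.5 h (−1.80 ± 0.31, adjusted p = 0.00910). Car2 is not confined to red cells, being an osteoclast and oligodendrocyte enzyme as well. Car1, the other red cell carbonic anhydrase, had 37.8, 28.4 and 18.6 CPM in controls, 35.4, 41.5 and 62.3 CPM at 0.5 h and 10.6, 23.2 and 5.98 CPM at 24 h. Its log2 fold change between the times (−1.81 ± 0.52, adjusted p = 0.0612) did not pass, and its libraries were far apart within each group. Bpgm, which makes the phosphate that loosens oxygen from haemoglobin, had 108, 98.7 and 89.9 CPM in controls, 104, 119 and 153 CPM at 0.5 h and 68.7, 91.9 and 61.6 CPM at 24 h, and passed only between the times (−0.76 ± 0.17, adjusted p = 0.0150).

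Both ubiquitin ligases fell between 0.5 h and 24 h. Trim10, needed for terminal erythroid differentiation, had 33.1, 34.1 and 30.7 CPM in controls, 53.9, 58 and 77.4 CPM at 0.5 h and 16.3, 36.6 and 16.7 CPM at 24 h. Trim58, which helps the precursor expel its nucleus, had 7.25, 7.46 and 5.94 CPM in controls, 8.28, 12 and 13.1 CPM at 0.5 h and 4.30, 8.14 and 5.43 CPM at 24 h. The log2 fold changes were −1.44 ± 0.31, adjusted p = 0.0197 for Trim10 and −0.90 ± 0.24, adjusted p = 0.0257 for Trim58, and neither passed against control at 0.5 h (0.95 ± 0.31, adjusted p = 0.124 and 0.69 ± 0.24, adjusted p = 0.119) or at 24 h (−0.49 ± 0.31, adjusted p = 0.316 and −0.21 ± 0.25, adjusted p = 0.594).

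Counts of a gene per 1000 haemoglobin counts of the same library do not depend on library scaling, and on this measure not all genes moved in step with haemoglobin. At 0.5 h, 22 of the 31 other genes had all 3 libraries above all controls on this measure, and none had all 3 below. On the same measure 2.68% of all other genes tested in skull were wholly higher and 16% wholly lower. Slc4a1 had 119.9, 113 and 117 at 0.5 h, against 76.3, 81.8 and 65.7 in controls. Klf1 had 4.32, 4.67 and 4.94 at 0.5 h, against 2.13, 2.33 and 1.33 in controls. The 0.5 h libraries stand clear of the controls for both genes. At 24 h, 7 of the 31 lay above all controls, 2 (Tspo2 and Car2) lay below them and 22 overlapped. Of all genes, 52% lay wholly higher and 2.45% wholly lower. Slc4a1 then had 42.5, 78.8 and 48.2 per 1000 haemoglobin counts and Alas2 32, 37.8 and 33.1, beside 34, 35.9 and 33.6 for Alas2 in controls. Between 24 h and 0.5 h, 16 of the 31 lay wholly lower at 24 h, among them Slc4a1, Ank1, Sptb, Epb42, all 4 antigen genes, Klf1 and Hemgn, and 1 lay wholly higher. Of all genes, 1.33% lay wholly lower and 59.5% wholly higher. These counts are a description of the libraries and were not tested.

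**Figure D4:**
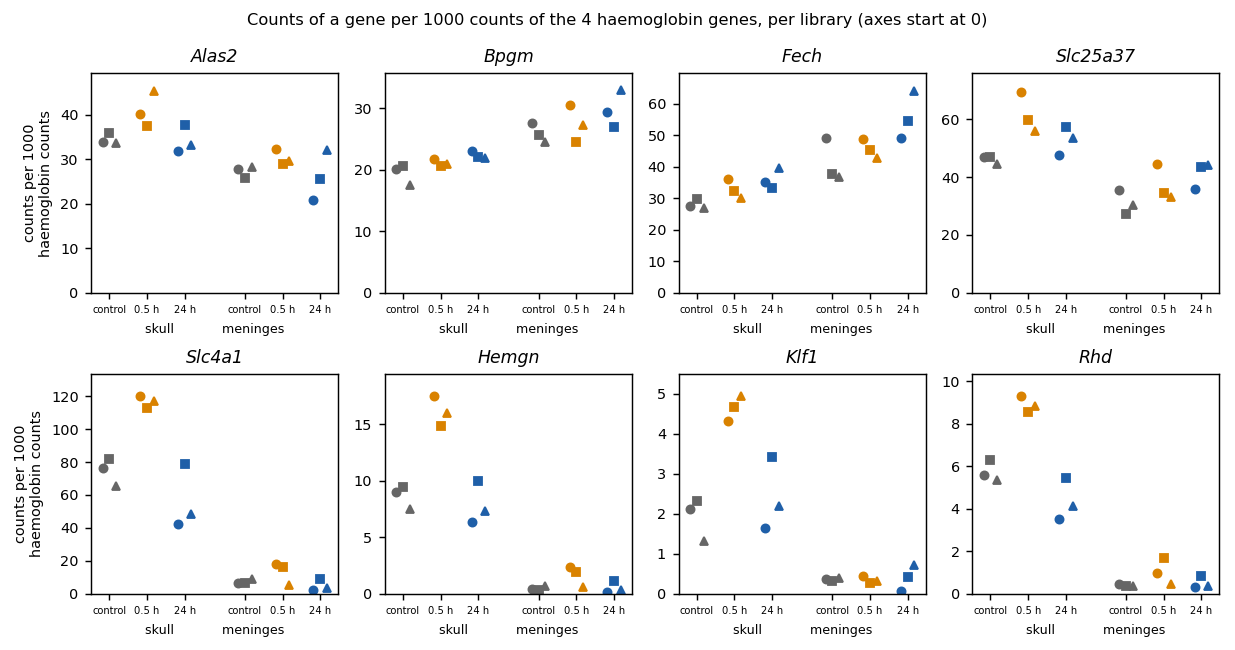
Counts of 8 genes per 1000 counts of the 4 haemoglobin genes (y axis from 0) in each skull and meninges library, for controls, 0.5 h and 24 h; circles, squares and triangles are replicates 1, 2 and 3. Slc4a1, Hemgn, Klf1 and Rhd (lower row) are high in skull at 0.5 h and low in meninges, where Slc4a1 runs from 2.27 to 18.01, while Alas2 (upper row) runs from 32.0 to 45.3 in skull and from 20.9 to 32.4 in meninges.

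Other genes of the same pathways were read from lists that leave out the 35. Over all genes tested in skull, 10.6% were called higher and 10.4% lower at 24 h against control. At 0.5 h against control 1.96% were called higher and 2.94% lower. Heme metabolism outside the erythroid enzymes was divided: of 18 genes, 2 rose and 3 fell at 24 h against control, and 1 rose and 5 fell at 24 h against 0.5 h (7.74% of all genes were lower and 8.39% higher there). Glrx5, which assembles iron-sulfur clusters, and Tmem14c, a porphyrin carrier, fell at 24 h against control (−0.51 ± 0.11, adjusted p = 0.00742 and −0.29 ± 0.08, adjusted p = 0.0268). Hmox1, which breaks heme down, had 65.7, 74.7 and 41.5 CPM in controls, 56.5, 60.2 and 102 CPM at 0.5 h and 111, 127 and 139 CPM at 24 h. It rose at 24 h (1.05 ± 0.28, adjusted p = 0.0365), and so did Alas1, the form of the first enzyme that other cells use (0.56 ± 0.17, adjusted p = 0.0400), named after its values were seen and sharing 465 exon bases with a gene on the opposite strand. The gene that rose between the times was Flvcr1, a heme exporter, and Iscu, an iron-sulfur scaffold, alone was called at 0.5 h against control, where it fell (−0.35 ± 0.09, adjusted p = 0.0460). The Iscu call held in 2 of 9 fits that left out a library (24 h replicate 2 and control replicate 2). The Hmox1 call ended when any 1 of the 3 libraries at 24 h was left out, or control replicate 1 or 3.

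Iron handling showed no common direction. At 24 h against control 10.6% of all genes were called higher and 10.4% lower. At 24 h against 0.5 h these shares were 8.39% and 7.74%. Of 14 genes, 4 rose and 3 fell at 24 h against control, among them Aco1, the iron-sensing form of aconitase (0.47 ± 0.09, adjusted p = 0.00317), the iron chaperone Pcbp1 (0.33 ± 0.08, adjusted p = 0.0113), the other mitoferrin Slc25a28 (−0.50 ± 0.11, adjusted p = 0.00641) and Tfr2, a second transferrin receptor of erythroid precursors and liver (−0.85 ± 0.23, adjusted p = 0.0217). Tfr2 had 9.51, 12.1 and 7.87 CPM in controls, 12.5, 12.6 and 17.2 CPM at 0.5 h and 4.64, 7.22 and 4.51 CPM at 24 h, lower in every 24 h library than in any other, and was the 1 iron gene that fell between 0.5 h and 24 h (−1.37 ± 0.23, adjusted p = 0.00238). In that comparison 4 rose: Aco1, Pcbp1, the iron transporter Slc11a2 (0.29 ± 0.09, adjusted p = 0.0361) and the ferritin heavy chain Fth1 (0.48 ± 0.13, adjusted p = 0.0283).

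Of 20 further transcription factors with a role in erythroid cells, 9 fell and none rose between 0.5 h and 24 h. At 24 h against control 5 fell and none rose. Of all genes 7.74% and 10.4% were called lower in these comparisons, in that order. Zfpm1, the partner of GATA1, had 61.7, 65.5 and 50.01 CPM in controls, 66.5, 73.1 and 88 CPM at 0.5 h and 28.4, 41.1 and 31.2 CPM at 24 h. Zfpm1 fell in both comparisons, with −1.18 ± 0.16, adjusted p = 0.00100 and −0.82 ± 0.16, adjusted p = 0.00473, in all 18 alternatives. Foxo3, which guards maturing erythroblasts against oxidation and is active in many tissues, had 188, 194 and 216 CPM in controls, 199, 197 and 188 CPM at 0.5 h and 93, 112 and 107 CPM at 24 h. It fell at 24 h against control (−0.94 ± 0.09, adjusted p = 4.57e-05) and against 0.5 h (−0.90 ± 0.09, adjusted p = 0.000113), and its 0.5 h libraries lay among the controls. Gfi1b, a repressor of erythroid and megakaryocytic cells, had 6.18, 7.97 and 5.04 CPM in controls, 12.5, 11.2 and 17.8 CPM at 0.5 h and 4.30, 8.14 and 4.57 CPM at 24 h. It rose at 0.5 h (1.11 ± 0.27, adjusted p = 0.0391), the 1 factor of the list that did, and fell between the times (−1.29 ± 0.27, adjusted p = 0.00918), but the 0.5 h call ended without any 1 of the 0.5 h libraries or without control replicate 1 or 3. Klf13 and Bach1 fell at 0.5 h (−0.62 ± 0.09, adjusted p = 0.00515 and −0.45 ± 0.09, adjusted p = 0.0202) and at 24 h (−0.91 ± 0.09, adjusted p = 6.98e-05 and −0.45 ± 0.09, adjusted p = 0.00582).

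Of 15 erythropoietin signalling genes tested, 1 rose and 1 fell at 0.5 h against control, where 4.9% of all genes were called in either direction. At 24 h against control 1 rose and 2 fell, where 20.9% of all genes were called. Between the times 2 fell and none rose, where 16.1% were called. The kinase gene Pim1, a target of STAT5, had 90.5, 103 and 112 CPM in controls, 50.5, 57.3 and 69.3 CPM at 0.5 h and 36.4, 40.8 and 52.5 CPM at 24 h. It fell at 0.5 h (−0.79 ± 0.15, adjusted p = 0.0176) and at 24 h (−1.24 ± 0.15, adjusted p = 0.000398), and the anti-apoptotic Bcl2l1 fell at 24 h (−0.59 ± 0.13, adjusted p = 0.00705). Pim1 shares 488 exon bases with Gm26885 on the opposite strand. Dusp6, a phosphatase of the ERK pathway, rose at 0.5 h (0.70 ± 0.08, adjusted p = 0.00182) with 37, 37.7 and 39.2 CPM in controls, 60.6, 62.1 and 61.7 CPM at 0.5 h and 39.7, 40.3 and 45.5 CPM at 24 h. Erfe, the erythroblast hormone that frees iron for heme synthesis, was low at 1.24, 1.41 and 1.52 CPM at 24 h against 0.416, 0.285 and 0.276 CPM in controls. It rose at 24 h (2.07 ± 0.46, adjusted p = 0.00794), and muscle makes it too. It was named after its values were seen, since its mean is under 1 CPM, and it shares 357 exon bases with Ilkap on the opposite strand.

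Of 20 further membrane genes, 12 fell and 1 rose (the glucose transporter Slc2a1) between 0.5 h and 24 h. At 24 h against control 3 fell and none rose. Of all genes 7.74% and 10.4% were called lower in these comparisons, in that order. At 0.5 h against control the water channel Aqp1 rose (0.34 ± 0.09, adjusted p = 0.0420), and Slc2a1 and the adhesion receptor Cd44 fell (−1.06 ± 0.21, adjusted p = 0.0182 and −0.49 ± 0.11, adjusted p = 0.0241). The Aqp1 call held in 1 of 9 fits that left out a library (24 h replicate 2). The Cd44 call ended without any 1 of the 0.5 h libraries or control replicate 3, and the Slc2a1 call without 0.5 h replicate 1 or 2. Glycophorin C (Gypc), tropomodulin (Tmod1), beta adducin (Add2) and dematin (Dmtn) had log2 fold changes of −0.56 ± 0.10, adjusted p = 0.00338, −1.38 ± 0.25, adjusted p = 0.00454, −1.65 ± 0.27, adjusted p = 0.00499 and −1.49 ± 0.26, adjusted p = 0.00654 between the times. Of 22 genes of terminal maturation and of the red cell's antioxidant and energy supply, 13 fell and 1 (Cdkn2c) rose at 24 h against control, and 12 fell and none rose between the times. Autophagy genes that clear organelles were among them, Ulk1 (−0.80 ± 0.10, adjusted p = 0.000246 at 24 h against control) and Map1lc3b (−0.69 ± 0.08, adjusted p = 0.000257), together with Mxi1 (−0.54 ± 0.09, adjusted p = 0.00124) and the F-box protein Fbxo7 (−0.73 ± 0.14, adjusted p = 0.00350). Ulk1 and Map1lc3b also fell at 0.5 h (−0.38 ± 0.10, adjusted p = 0.0425 and −0.37 ± 0.08, adjusted p = 0.0282), and are expressed in all tissues. The 0.5 h call of Ulk1 held in 1 of 9 fits that left out a library (control replicate 2). That of Map1lc3b held in 5 of 9, ending without 0.5 h replicate 1 or 2 or control replicate 1 or 3. Pklr, the red cell pyruvate kinase, had 8.08, 7.06 and 5.11 CPM in controls, 12.7, 11 and 17.4 CPM at 0.5 h and 1.47, 3.98 and 1.34 CPM at 24 h, and fell between the times (−2.60 ± 0.38, adjusted p = 0.00182). Pklr shares 711 exon bases with Hcn3 on the opposite strand. Other globin genes of the lists were 5, of which 2 were tested, and Hbq1b, a theta globin, had 6.60, 4.73 and 3.73 CPM in controls, 7.92, 8.85 and 8.46 CPM at 0.5 h and 1.30, 2.94 and 2.68 CPM at 24 h with −1.87 ± 0.30, adjusted p = 0.00171 between the times and −1.13 ± 0.30, adjusted p = 0.0193 at 24 h against control.

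Markers of other marrow cells moved in part with the erythroid genes. At 24 h against control 10.6% of all genes were called higher and 10.4% lower. At 24 h against 0.5 h these shares were 8.39% and 7.74%. Of 13 B cell precursor genes, 6 fell at 24 h against control and 8 between 0.5 h and 24 h, with none higher, and their sum was 370.2, 372 and 322 CPM in controls, 339.9, 436 and 443 CPM at 0.5 h and 171, 262 and 151 CPM at 24 h, again with replicate 2 the highest at 24 h. Of 12 mature neutrophil genes, 1 (Camp) fell at 24 h against control and none was called between the times or at 0.5 h, and their sum was 10560, 9226 and 6081 CPM in controls, 8481, 7368 and 10730 CPM at 0.5 h and 4791, 6982 and 6766 CPM at 24 h. None of 6 promyelocyte genes was called, and 1 of 11 megakaryocyte and platelet genes (Thbs1) fell in each comparison with 24 h. Of 10 genes listed for the macrophages at whose surface erythroblasts mature, 4 fell at 24 h against control (Adgre1, C1qa, C1qb and Mertk). The sum of the 10 was 769, 1025 and 615 CPM in controls, 658, 642 and 828 CPM at 0.5 h and 534, 591 and 599.6 CPM at 24 h. These genes do not single out those macrophages: the sum was 972 to 1402 CPM in meninges controls. In untreated skull 5 of the 10 were called lower than in untreated meninges and 4 higher. Of 15 cell cycle genes, 2 rose (Ccnb1 and Tyms) and none fell at 24 h against control, while Tyms rose and Mki67 fell between the times. Of 9 osteoblast genes, 3 rose and 2 fell at 24 h against control, and skeletal muscle genes, of which none was called, summed to 2838, 1406 and 724 CPM in controls, 4179, 2224 and 1209 CPM at 0.5 h and 1873, 962 and 1961 CPM at 24 h. No gene of these marker lists was at 0 in a whole skull group. Of 8 stem and progenitor genes, Cd34 and Hlf rose at 24 h against control (0.44 ± 0.11, adjusted p = 0.0157 and 1.84 ± 0.28, adjusted p = 0.00161) and against 0.5 h. Cebpa fell at 24 h against control (−0.36 ± 0.10, adjusted p = 0.0267). None of the 8 was called at 0.5 h against control. At 24 h against control 4 of the 8 had positive and 4 negative log2 fold changes. Their sum was 226, 253 and 209 CPM in controls and 234, 249 and 237 CPM at 24 h. At 0.5 h it was 202, 188 and 231 CPM. These 8 genes are not confined to marrow: their sum was 221 to 256 CPM in meninges controls and 277 to 289 CPM in brain controls. Which cells the changes of Cd34 and Hlf came from was not tested. The part of changing marrow make-up in the erythroid results was not tested.

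In the meninges 34 of the 35 genes passed the filter on low counts (all but Trim58), and few differed. At 0.5 h against control none was called by edgeR, limma-voom or DESeq2, where edgeR called 0.874% of all 18542 genes tested. An unadjusted edgeR p under 0.05 was found for 5 of the 34 and for 2517 of all genes tested. At 24 h against control Epb41 alone fell (−0.36 ± 0.09, adjusted p = 0.0374), where 4.45% of all genes were called lower, and between 0.5 h and 24 h Alas2 alone fell (−0.56 ± 0.12, adjusted p = 0.0422), where 1.27% were. Alas2 had 49.2, 64.8 and 62 CPM in controls, 63.2, 66.2 and 62.6 CPM at 0.5 h and 37, 46.3 and 47.3 CPM at 24 h, so its 24 h libraries lay below all others. Slc4a1 had 11.3, 15.6 and 19 CPM in controls, 35.1, 37.2 and 11.1 CPM at 0.5 h and 4.01, 16.3 and 4.88 CPM at 24 h, without a call. DESeq2 called 4 genes lower in each of the comparisons with 24 h. The Epb41 call held in 1 of 9 fits that left out a library (24 h replicate 1) and the Alas2 call in 2 of 9 (control replicates 1 and 3).

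In brain 21 of the 35 passed the filter and none was called by edgeR in any comparison. The number with an unadjusted p under 0.05 was 0 at 0.5 h against control, 3 at 24 h against control and 4 between the times. Of all 18172 genes tested, 955, 3318 and 2208 had such a p, and 0.0055%, 2.62% and 0.22% were called. DESeq2 called 1 higher and 1 lower at 24 h against control and limma-voom 1 lower. Haemoglobin made up 0.00205% to 0.00455% of brain counts. Trim10 had no count in any brain library and Gata1 none in the brain controls, which allows levels of up to 0.11 to 0.208 CPM by library (3 counts).

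Differences between tissues were tested for 3 effects against control, the 24 h effect in skull minus meninges and in skull minus brain and the 0.5 h effect in skull minus meninges, and no gene passed. The difference between 24 h and 0.5 h was not compared between tissues, nor was the 0.5 h effect in skull with that in brain. For the 24 h effect in skull minus that in meninges, 30 of the 34 genes that passed the meninges filter had negative differences (median −0.25). Of the 34, 5 had an unadjusted p under 0.05, as had 2410 of all 21500 genes, and 0.633% of all genes were called. Epor was the nearest (−1.39 ± 0.44, adjusted p = 0.178), followed by Cpox (−0.72 ± 0.23, adjusted p = 0.185). For skull minus brain at 24 h only the 21 genes that passed the brain filter are counted, since the other 14 had between 0 and 17 counts in each brain library. All 21 differences were negative and 7 had an unadjusted p under 0.05, as had 4515 of all 21500 genes. Of all genes 6.71% were called, and among the 21 Uros was nearest (−0.53 ± 0.17, adjusted p = 0.0669). For the 0.5 h effect in skull minus meninges, 28 of the 34 were positive and 6 had an unadjusted p under 0.05. Of all 21500 genes 1254 had such a p and 0.0093% were called. Without skull 24 h replicate 2 the counts of genes called lower were 2 for the difference from meninges and 7 for that from brain at 24 h. These 2 counts are over all 35 genes, so the second includes the 14 genes with few brain counts and is not a count among the 21. The shares of all genes called in those fits are not reported here.

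Untreated tissues were compared as a check of where these genes are expressed. In untreated mice 32 of the 34 genes that passed the meninges filter were higher in skull than in meninges, with 21.6% of all genes higher. Sptb and Alad were the 2 not called. Haemoglobin was 2.67-fold (Hbb-bs) and 2.75-fold (Hba-a1) higher in skull, Alas2 3.49-fold, Slc4a1 28.9-fold, Kel 42.3-fold and Hemgn 47.9-fold. Against haemoglobin in the same library, 18 of the 31 other genes were wholly higher in skull controls than in meninges controls, 9 were wholly lower and 4 overlapped. Of all genes, 3.22% were wholly higher and 73.7% wholly lower. Slc4a1 had 76.3, 81.8 and 65.7 per 1000 haemoglobin counts in skull controls and 6.38, 6.24 and 8.68 in meninges controls, while Alas2 had 34, 35.9 and 33.6 in skull controls and 27.8, 25.9 and 28.4 in meninges controls. Of the 21 genes that passed the brain filter, 18 were higher in untreated skull than in untreated brain (37.3% of all genes were), Sptb was lower, as were 38.3% of all genes (−0.89 ± 0.19, adjusted p = 0.000299), and Ank1 and Uros were not called. The other 14 genes did not pass the brain filter and are not counted. Sptb and Ank1 are also made by neurons, and the 3 brain controls had 248, 236 and 264 CPM of Sptb.

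**Figure D5:**
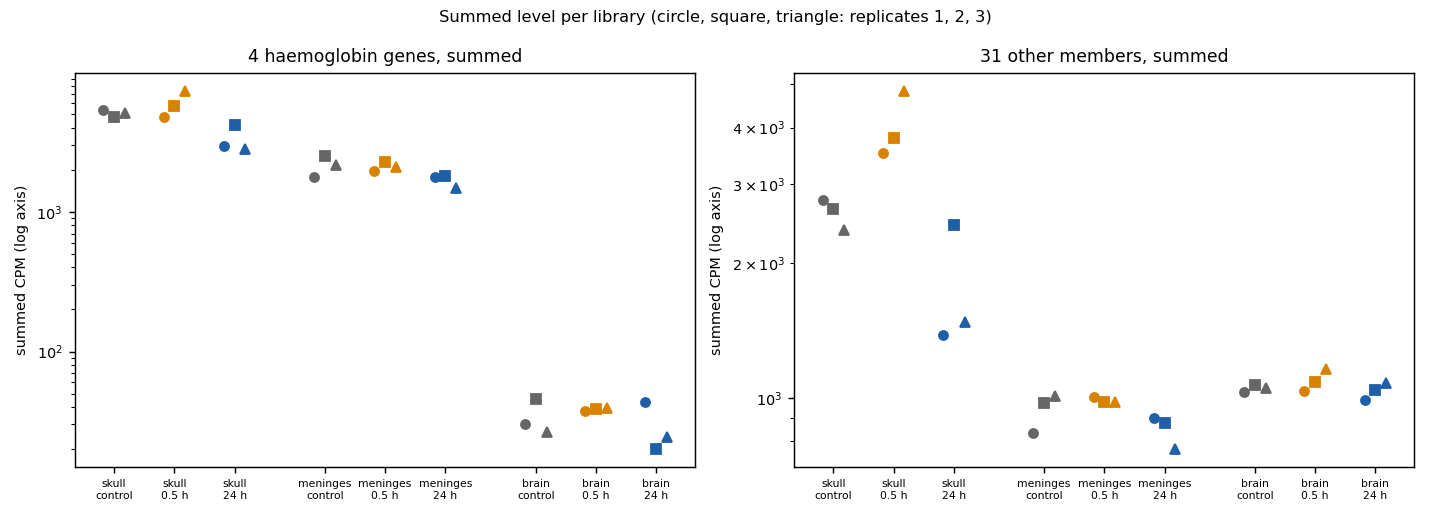
Summed level (y axis, CPM on a log axis) of the 4 haemoglobin genes and of the 31 other genes in each of the 27 libraries, grouped by tissue and time; circles, squares and triangles are replicates 1, 2 and 3. Haemoglobin sums to 2804 to 7339 CPM in skull, 1477 to 2500.0 CPM in meninges and 20.1 to 45.8 CPM in brain. The other genes sum to 1378 to 4826 CPM in skull, 770.1 to 1009 CPM in meninges and 990.8 to 1158 CPM in brain. CPM are scaled within each tissue, so the tissues are not on a common scale.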

How the data were processed

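Total RNA was taken from skullcap, meninges and brain with TRIzol and messenger RNA was selected by poly(A), per the labels' protocols. The authors deposited 1 table of raw read counts per gene for all 27 libraries. The submitters' processing notes name HISAT2 2.1.0 and the mm10 build; the counting program, its strand setting and its annotation are not stated there, so exons shared with a gene on the other strand are stated beside the gene.

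Counts were filtered within each tissue with filterByExpr (minimum count 10, minimum total 15), scaled by TMM and tested with edgeR 4.0.16 (quasi-likelihood F test, robust, R 4.3.3), with the 9 libraries of a tissue in 1 fit and Benjamini-Hochberg adjustment over all genes tested at 0.05. Tissues were compared in a 9-group fit of all 27 libraries. The 35 members and all other lists were chosen with earlier results of these data known. Values are named for the 35 genes in every skull library and, in each other list, for up to 4 genes with the smallest p and a mean of at least 1 CPM; some results of these lists are not reported here. Alternatives were RLE scaling, TMM factors taken without mitochondrial and haemoglobin genes, no low-count filter, the test without the robust option, limma 3.58.1 (voom with quality weights), DESeq2 1.42.0, a replicate block, 2 groups alone, all 27 libraries in 1 fit, and leaving out each library. The test was tried on simulated counts first. Gene positions are from GENCODE M21 on mm10, and the globin transcripts were aligned with Biopython 1.88. The labels mention no molecular identifiers, so intervals cover counting error only.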

Additional observations from a re-analysis of the deposited data

Results flagged for a closer look

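Cpox, which makes protoporphyrinogen, had log2 fold changes of opposite sign in 2 tissues between 0.5 h and 24 h. Its log2 fold change of 24 h over 0.5 h was −1.129 in skull and 0.2546 in brain, with every 24 h library below every 0.5 h library in skull and above every 0.5 h library in brain. The skull value passed the test (adjusted p = 0.00164, edgeR) and the brain value did not (adjusted p = 0.281). In brain Cpox had 43.2, 42.3 and 49.6 CPM at 0.5 h and 53.7, 49.8 and 57.75 CPM at 24 h. The brain controls had 47.0, 52.6 and 53.1 CPM, and the 24 h libraries overlapped them. The difference between the tissues for this pair of times was not tested. Groups of 3 libraries are too small for a check of single outlying samples.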

How the results depend on the processing

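Every count of the 35 genes called was recomputed under the alternatives named above, 18 for a comparison within a tissue and 31 across tissues. The share of all genes called under each alternative is not reported here, so a higher count may go with more calls among all genes. For 24 h against 0.5 h in skull the main count of 30 became 19 with the 2 groups alone and 16 to 33 with 1 library left out, and all counts were of lower genes. For 0.5 h against control in skull the main count of 3 became 5 with no filter, 6 with limma-voom, 13 with DESeq2, 17 with the 2 groups alone and 7 with all 27 libraries, and 0 to 18 with 1 library left out. Without 0.5 h replicate 3 the direction turned, since the 1 gene called, Hba-a2, was lower. For 24 h against control in skull the main count of 8 became 2 with no filter, 19 with limma-voom, 15 with DESeq2, 4 with the 2 groups alone and 0 to 27 with 1 library left out. In meninges the count of 1 at 24 h against control became 2 with RLE scaling or no filter, 4 with DESeq2, 0 with the 2 groups alone or all 27 libraries and 0 to 2 with 1 library left out. The count of 1 at 24 h against 0.5 h became 2 with no filter, 0 with no robust option, 4 with DESeq2 and 0 to 1 with 1 library left out. In brain the count of 0 at 24 h against control became 2 with no filter, 1 with limma-voom, 2 with DESeq2 and 0 to 1 with 1 library left out, and at 24 h against 0.5 h it became 1 with no filter. Leaving out 1 library gave 0 to 2 for the 24 h effect in skull minus meninges and 0 to 7 for skull minus brain. The counts for skull minus brain include the 14 genes that did not pass the brain filter. Counts at 0.5 h in meninges and brain, the 0.5 h difference and the untreated comparisons stayed within 1.5 times. The cause of these shifts was not tested, beyond the fewer libraries that removals and the 2 groups alone leave.

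Replicate numbers were shared between groups but not shown to pair the samples: deviations of same-numbered libraries correlated at −0.396 to 0.117, and in 7 of 27 pairs of libraries the first correlated best with the same number. With the replicate block the counts were 32, 2 and 5 in skull (24 h against 0.5 h, 0.5 h against control, 24 h against control), 2 and 2 in meninges for the comparisons with 24 h, and 1 for the 24 h effect in skull minus brain, against a main count of 0. The other counts kept within 1.5 times under the block.

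In brain, 14 of the 35 genes did not pass the filter on low counts, and the depth does not allow a change over time to be tested for them there.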
